A study of Mus musculus with 8 samples.

Results

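The genes described here are 10 members of the fibroblast growth factor (FGF) system, taken by symbol from a table of 48490 mouse genes. They are the ligand genes Fgf2, Fgf7, Fgf9 and Fgf18, the receptor genes Fgfr1, Fgfr2, Fgfr3 and Fgfrl1, and the feedback inhibitor genes Spry1 and Spry2. All 10 were found, each on its own line. Expression was measured by RNA sequencing in 8 libraries of tdTomato-positive cells from the proximal tibia of mice at postnatal day 5, each library made with Smart-seq2, a full-length cDNA method for very small samples, from a pool of 70 cells picked by hand. In every group the Cre recombinase came from Col10a1, which marks hypertrophic chondrocytes (swollen cartilage cells next to the marrow), and turned on the Rosa26-Tdtomato reporter in those cells and their descendants. GoF mice (2 libraries) also carried Ctnnb1-exon3 Δ/+, in which 1 allele of the β-catenin gene lacks the exon that marks the protein for breakdown. LoF mice (4 libraries) carried Ctnnb1Δ/Δ, with a deletion in both alleles of the gene, a loss of function by the labels. WT mice (2 libraries) carried only Col10a1Cre and Rosa26-Tdtomato. Separate animals are not stated in the labels, so the p-values cover the spread between libraries only, and this may be technical.

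FGFs are secreted proteins that bind receptor tyrosine kinases together with heparan sulfate chains, and the bound receptors signal mainly through RAS and the kinase ERK. In the growth plate, Fgfr3 is known as a brake on chondrocyte proliferation, Fgfr1 as the receptor of hypertrophic chondrocytes and differentiating osteoblasts, and Fgfr2 as a receptor of osteoprogenitors and perichondrium. Sprouty proteins are induced by receptor signalling and dampen the ERK relay, so their genes are commonly read beside those of the receptors.

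Some facts of the libraries bear on every value below. Between 12587 and 13944 genes were above 0 per library, in FPKM (fragments scaled by transcript length and library total). Ctnnb1, the targeted gene, was at 72.02 and 86.7 FPKM in GoF, 67.3 to 81.1 FPKM in LoF, and 137 and 146 FPKM in WT. Its transcript was thus present in every LoF library, at levels that overlapped those of GoF. The value is for the whole gene, so a missing exon cannot be read from it. The Wnt target Axin2 was at 5.26 and 2.80 FPKM in GoF, was at 0 in each of the 4 LoF libraries, and was at 0 and 0.323 FPKM in WT. Y-linked transcripts were present in both GoF libraries and in LoF 2 and 3, and Xist in LoF 1 and 4 and both WT libraries, so GoF and WT differ in sex as well as in genotype and the effects of these cannot be told apart by those libraries alone. Summed FPKM of 7 osteoblast markers was 20343 to 20494 in GoF, 1156 to 2831 in LoF and 14945 to 15729 in WT. This sum was mostly Ibsp, Col1a1 and Col1a2. Runx2 and Col1a1 averaged highest in WT, and the rest averaged highest in GoF. Runx2 averaged 26.7 FPKM in GoF, 26.2 FPKM in LoF and 51.0 FPKM in WT, and Col1a1 5358, 517 and 6076 FPKM. Summed FPKM of 5 marrow stromal and adipocyte markers was 43.2 to 57.0 in GoF, 968 to 2360 in LoF and 92.7 to 396 in WT. The 5 endothelial markers summed to 0.541 to 1.19 FPKM in GoF, with Emcn and Tek listed at 0. In LoF they summed to 0.564 to 56.98 FPKM, highest in LoF library 3, and in WT to 0.249 to 0.334 FPKM, with Tek and Cdh5 listed at 0. The 5 pericyte and smooth muscle markers summed to 3.74 to 3.84 FPKM in GoF, 23.1 to 57.7 FPKM in LoF and 16.0 to 26.8 FPKM in WT, with Myh11 listed at 0 in all 8 libraries. The 5 hypertrophic markers summed to 479 to 644 FPKM in GoF, 3247 to 4949 FPKM in LoF and 1685 to 2260 FPKM in WT. In LoF and WT the sum was mostly the collagenase gene Mmp13, at 3113 to 4784 FPKM in LoF and 2106 and 1514 FPKM in WT. In GoF, Mmp13 was at 10.9 and 86.7 FPKM, and the sum was mostly Panx3 and Col10a1. Not every marker of that list was lowest in GoF. Ihh was at 1.46 and 3.91 FPKM in GoF and at 0 in every LoF and WT library. Col10a1 itself was at 177 to 189.6 FPKM in GoF, 9.61 to 114 FPKM in LoF and 6.24 to 20.5 FPKM in WT. Panx3 was at 252 and 344 FPKM in GoF, 14.7 to 34.2 FPKM in LoF, and 103 and 101 FPKM in WT. Pth1r, like Mmp13, averaged lowest in GoF, at 28.6 FPKM, with 35.3 FPKM in LoF and 47.4 FPKM in WT. The 5 proliferating and resting chondrocyte markers summed to 109 to 191 FPKM in GoF, 12.9 to 71.9 FPKM in LoF and 11.2 to 13.1 FPKM in WT. In GoF the sum was mostly Col2a1 and Comp. Acan averaged 6.77 FPKM in GoF, 12.1 FPKM in LoF and 1.82 FPKM in WT, and Sox9 averaged 0.147, 1.41 and 0.967 FPKM. The 5 perichondrial and periosteal fibroblast markers summed to 839 to 914 FPKM in GoF, 79.5 to 93.3 FPKM in LoF and 216 to 452 FPKM in WT. In GoF and WT the sum was mostly Dcn. Ly6a also averaged highest in GoF, but Postn, Prrx1 and Gli1 averaged lowest there. These 3 averaged 10.9, 12.8 and 0.242 FPKM in GoF, 20.3, 14.1 and 2.38 FPKM in LoF, and 28.1, 17.7 and 1.35 FPKM in WT. The 7 blood cell and osteoclast markers summed to 317 to 657 FPKM in GoF, 114 to 1468 FPKM in LoF and 1665 to 6299.7 FPKM in WT, with Cd74 listed at 0 in GoF and WT. The WT sum was mostly the haemoglobin genes Hba-a1 and Hbb-bs. The osteoclast markers Acp5 and Ctsk averaged highest in GoF, at 20.0 and 77.1 FPKM. They averaged 4.17 and 62.1 FPKM in LoF and 4.27 and 63.8 FPKM in WT. In pools of cells, fewer cells of a type and less RNA per cell cannot be told apart, and the part of these marker differences in the results below was not tested.

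Of the 4 ligand genes, Fgf7 alone reached the filter for testing (1 FPKM or more in 2 or more of the 8 libraries). Fgf7 (ENSMUSG00000027208.14, plus strand of chromosome 2, 126034658 to 126091185, mm10) encodes keratinocyte growth factor, a mesenchymal ligand best known for acting on the epithelial splice form of Fgfr2. It was listed at 0 in both GoF libraries, and was at 36.9, 63.8, 40.8 and 31.0 FPKM in LoF libraries 1 to 4, against 3.97 and 5.82 FPKM in WT libraries 1 and 2. The 3 groups did not overlap, with every LoF library above both WT libraries and both of those above GoF. In the fit over all 12888 tested genes (limma on log2(FPKM + 1), p-values adjusted by Benjamini-Hochberg over all of them), Fgf7 was higher in LoF than in WT (log2 fold change 2.87, SE 0.40 and adjusted p = 0.0147, 8.80-fold by means). Against WT, it was lower in GoF (log2 fold change -2.54, SE 0.46 and adjusted p = 0.0210) and lower in GoF than in LoF (log2 fold change -5.41, SE 0.40 and adjusted p = 7.02e-05). No fold is given for GoF, since its libraries are listed at 0. Both GoF and LoF were set against the same WT libraries. The call against LoF held in all 16 alternatives, at an adjusted p of up to 0.0122. The call of GoF against WT ended when only those groups were fitted (adjusted p = 0.109), with sex as a covariate (adjusted p = 0.111) and without GoF library 1, GoF library 2, WT library 1 or WT library 2 (adjusted p = 0.126, 0.1005, 0.109 and 0.142), and that of LoF against WT ended when only those groups were fitted (adjusted p = 0.0667), with sex as a covariate (adjusted p = 0.0963) and without the same libraries in turn (adjusted p = 0.0681, 0.0696, 0.132 and 0.140). Both calls also ended with the replicate number as a block (adjusted p = 0.0772 for GoF against WT). The log2 fold changes in these fits were -2.31 to -3.12 for GoF and 2.58 to 3.10 for LoF. The summed marrow stromal and adipocyte markers were ordered as Fgf7 was, but not each marker: Lepr averaged 47.5 FPKM in GoF and 15.4 FPKM in LoF, against 39.1 FPKM in WT. Adipoq was listed at 0 in both GoF libraries and in WT library 2. The part of these markers in the result was not tested. Among libraries with Xist alone, Fgf7 averaged 34.0 FPKM in LoF libraries 1 and 4 and 4.90 FPKM in WT.

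The other ligand genes were at or near the lower limit of these libraries. Fgf9, which encodes a ligand of cartilage and bone that signals through Fgfr3 among others, was at 2.97 and 0.553 FPKM in GoF libraries 1 and 2 and at 0 in each LoF and each WT library. Fgf18, a ligand gene of the perichondrium and a regulator of growth plate chondrocytes, was listed at 0 in both GoF libraries. It was at 2.09 and 0.751 FPKM in LoF libraries 2 and 4 and listed at 0 in LoF libraries 1 and 3, against 0 and 0.790 FPKM in the WT libraries. Fgf2, whose product is stored on the heparan sulfate of the matrix, stayed at or below 0.505 FPKM in every library. Without a filter on low values, none of these 3 genes passed in a comparison, and the smallest adjusted p was 0.0660 for Fgf9 in GoF against LoF (log2 fold change 1.31, SE 0.33). Fgf7 thus made up 96.2% to 100% of the summed FPKM of the 4 ligand genes in LoF and 97.5% and 81.8% in WT, while in GoF the whole sum was 2.97 and 0.641 FPKM.

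The promoter of Fgf7 is shown with those of Fgfr2, Spry1 and Spry2, because Fgf7, Fgfr2 and Spry1 were the members that GoF had lower than LoF and Spry2 is the paralog of Spry1 that was not. Each line gives 250 bases before and 50 after the start of the gene in RefSeq's GRCm38.p6 (the mm10 assembly), 5′ to 3′ on the strand of the gene. The windows are chr2:126034408-126034707 (plus strand), chr7:130266759-130267058 (minus strand), chr3:37639697-37639996 (plus strand) and chr14:105896770-105897069 (minus strand), in the order of the lines. The Fgfr2 window lies inside the locus used for its FPKM (130162451 to 133123350) and not at the 5′ end of that locus. A start of Fgfr2 at that end was not searched. Capitals mark the motif of the TCF and LEF factors, the DNA-binding partners of β-catenin, searched on both strands with CTTTGAA, then with CTTTGAT, then with CTTTGTA and then with CTTTGTT, no match overlapping another.
Fgf7: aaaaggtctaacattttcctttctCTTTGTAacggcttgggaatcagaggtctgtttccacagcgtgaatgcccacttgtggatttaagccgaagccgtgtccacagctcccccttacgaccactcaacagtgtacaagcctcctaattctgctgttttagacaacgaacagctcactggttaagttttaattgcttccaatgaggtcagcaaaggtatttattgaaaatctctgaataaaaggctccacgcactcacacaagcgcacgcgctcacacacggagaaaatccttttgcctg
Fgfr2: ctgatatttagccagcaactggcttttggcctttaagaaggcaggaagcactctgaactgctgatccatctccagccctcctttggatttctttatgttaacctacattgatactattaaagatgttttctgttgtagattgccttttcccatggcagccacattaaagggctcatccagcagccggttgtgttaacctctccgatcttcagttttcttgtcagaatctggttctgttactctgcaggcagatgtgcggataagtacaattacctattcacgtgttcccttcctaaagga
Spry1: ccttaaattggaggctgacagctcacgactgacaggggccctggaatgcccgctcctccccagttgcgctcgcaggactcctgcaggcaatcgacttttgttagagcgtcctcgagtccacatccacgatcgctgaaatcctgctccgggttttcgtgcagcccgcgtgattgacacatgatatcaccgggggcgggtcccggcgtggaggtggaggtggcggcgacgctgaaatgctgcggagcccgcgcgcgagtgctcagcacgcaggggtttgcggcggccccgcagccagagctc
Spry2: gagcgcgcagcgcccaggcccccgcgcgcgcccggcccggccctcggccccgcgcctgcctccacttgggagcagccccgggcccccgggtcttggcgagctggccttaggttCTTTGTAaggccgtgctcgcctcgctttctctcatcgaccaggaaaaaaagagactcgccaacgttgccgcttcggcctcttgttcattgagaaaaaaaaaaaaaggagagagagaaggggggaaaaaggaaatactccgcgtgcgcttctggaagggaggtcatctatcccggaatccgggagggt
The windows of Fgf7 and of Spry2 each held the letters CTTTGTA once, starting at position -226 and at position -137 counted from the gene's start. None of the 4 variants lay in the windows of Fgfr2, Spry1, Fgf2, Fgf9, Fgf18, Fgfr3 (2 windows) and Fgfrl1. A match was thus found in 2 of 10 windows of 9 members (20.0%), against 16.9% of 32851 windows of all genes in the same table. Of the members with a match, Fgf7 was lower in GoF than in LoF, and Spry2 was not called (log2 fold change 0.67, limma adjusted p = 0.360). Whether a match bears on expression was not tested. A match describes letters in a short window and says nothing of binding, and no window for Fgfr1 was used.

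**Figure D1:**
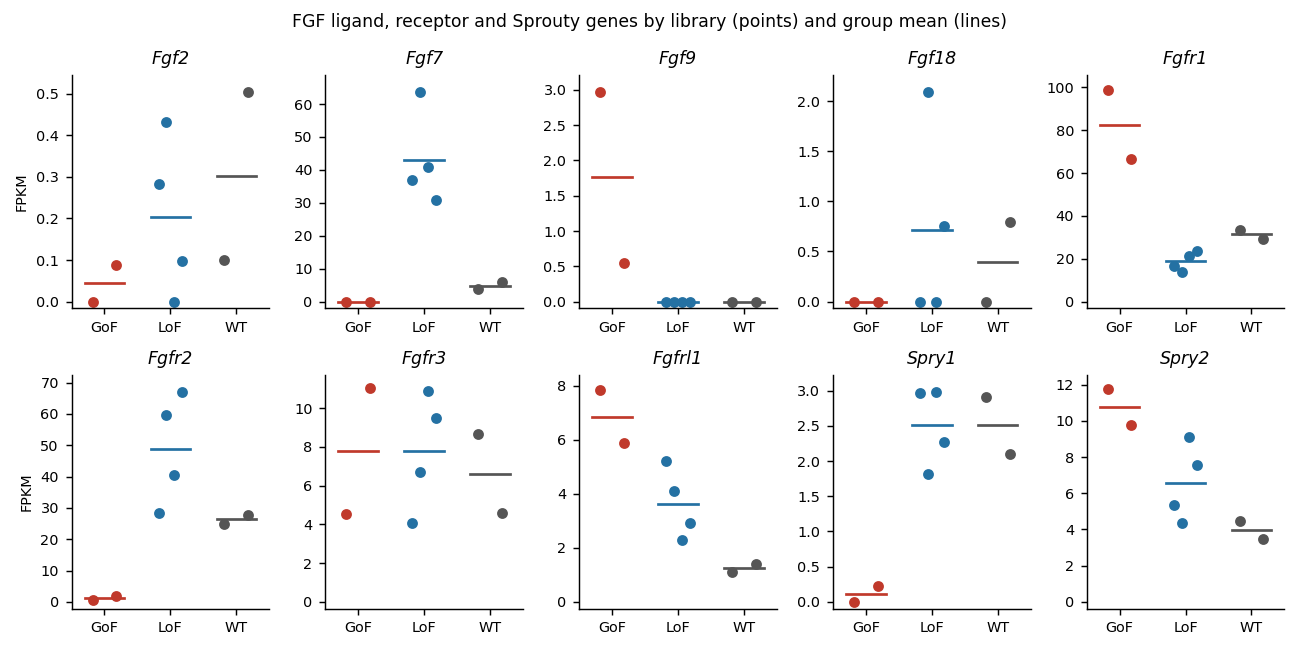
FPKM of the 10 FGF genes, with a point for each library (2 GoF, 4 LoF, 2 WT), a line at each group mean and a scale of its own for each gene. Fgf7 is listed at 0 in GoF and lies between 31.0 and 63.8 FPKM in LoF, and Fgfr1 and Fgfr2 are ordered oppositely across the groups.

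Among the receptor genes with a kinase domain, Fgfr1 and Fgfr2 differed in opposite directions between GoF and LoF. Fgfr1 (ENSMUSG00000031565.18, plus strand of chromosome 8, 25513654 to 25575718), the receptor gene of hypertrophic and osteoblastic cells, was at 98.6 and 66.4 FPKM in the GoF libraries and at 16.6, 13.9, 21.3 and 23.4 FPKM in LoF libraries 1 to 4, against 33.6 and 29.2 FPKM in the WT libraries. Every GoF library lay above both WT libraries and every LoF library below them. Fgfr1 was higher in GoF than in LoF (log2 fold change 2.08, SE 0.32, limma adjusted p = 0.00301, 4.39-fold by means). The comparisons with WT did not pass (log2 fold change 1.34, SE 0.37 and adjusted p = 0.104 for GoF, and -0.73, SE 0.32 and adjusted p = 0.362 for LoF), although under median ratio scaling the GoF value passed (log2 fold change 1.46, adjusted p = 0.0490). Without GoF library 1, the call against LoF ended (log2 fold change 1.80, adjusted p = 0.0586). Against the LoF libraries that also held Y-linked transcripts, the means were 82.5 FPKM in GoF and 17.6 FPKM in LoF libraries 2 and 3.

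Fgfr2 (ENSMUSG00000030849.18, minus strand of chromosome 7, 130162451 to 133123350), the receptor gene of osteoprogenitors, went the other way. It was at 0.598 and 1.89 FPKM in the GoF libraries and at 28.4, 59.7, 40.6 and 67.0 FPKM in LoF libraries 1 to 4, against 24.9 and 27.8 FPKM in the WT libraries. The GoF libraries were far below all others, and all 4 LoF libraries were above both WT libraries, LoF library 1 only just. Against WT, Fgfr2 was lower in GoF (log2 fold change -3.67, SE 0.49, limma adjusted p = 0.00445, 21.2-fold by means). It was also lower in GoF than in LoF (log2 fold change -4.46, SE 0.42 and adjusted p = 2.10e-04, 39.4-fold by means), and this call held in all 16 alternatives, at an adjusted p of up to 0.0148. LoF against WT did not pass (log2 fold change 0.79, SE 0.42, 95% interval -0.14 to 1.73, adjusted p = 0.467). The call of GoF against WT ended when only those groups were fitted (adjusted p = 0.109), with sex as a covariate (adjusted p = 0.104) and without GoF library 1, WT library 1 or WT library 2 (adjusted p = 0.0662, 0.0646 and 0.0613). That call also ended with the replicate number as a block (adjusted p = 0.0520). The log2 fold change in these fits was -3.24 to -3.84. Among libraries with Y-linked transcripts, Fgfr2 averaged 1.24 FPKM in GoF and 50.1 FPKM in LoF libraries 2 and 3. The locus as annotated is 2961 kb long, and the gene shares exon bases with Ctbp2 on the same strand. Ctbp2 was at 1.12 and 2.35 FPKM in GoF, 3.31 to 10.05 FPKM in LoF and 4.02 and 14.6 FPKM in WT. It was below Fgfr2 in every LoF and WT library and above it in both GoF libraries. The part of shared reads in the low GoF values of Fgfr2 was not tested. The table has 1 value per gene, so the epithelial and mesenchymal splice forms of the receptors are not separated.

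Fgfr3 (ENSMUSG00000054252.17, plus strand of chromosome 5, 33721674 to 33737068), the receptor gene of proliferating and prehypertrophic chondrocytes, was at 4.55 and 11.0 FPKM in GoF and 4.09, 6.73, 10.9 and 9.48 FPKM in LoF, against 8.67 and 4.58 FPKM in WT. Its libraries overlapped between all groups, and the log2 fold changes were 0.15 for GoF against WT (95% interval -1.16 to 1.46), 0.19 for LoF against WT (-0.95 to 1.32) and -0.03 for GoF against LoF (-1.17 to 1.10). The sign for GoF against LoF flips under median ratio scaling (0.12) and quantile normalization (0.13), and the signs against WT flip without WT library 2 (-0.24 for GoF and -0.21 for LoF). Fgfrl1 (ENSMUSG00000008090.14, plus strand of chromosome 5, 108692382 to 108706924) encodes a receptor that binds FGFs and has no kinase domain. It was at 7.83 and 5.89 FPKM in GoF and 5.23, 4.09, 2.31 and 2.93 FPKM in LoF, against 1.13 and 1.40 FPKM in WT. No libraries of the 3 groups overlapped, with GoF highest and WT lowest, but no comparison passed (log2 fold change 1.79, SE 0.52 and adjusted p = 0.125 for GoF against WT, 1.00, SE 0.45 and adjusted p = 0.382 for LoF against WT, and 0.79, SE 0.45 and adjusted p = 0.322 for GoF against LoF). Groups failed to overlap in 48.0% of all tested genes when GoF was set against WT, 21.4% for LoF with WT and 33.5% for GoF with LoF.

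FPKM is scaled by length, so levels of different receptors can be set side by side within a library. Of the summed FPKM of Fgfr1, Fgfr2 and Fgfr3, Fgfr1 made up 95.04% and 83.7% in the GoF libraries and 33.8%, 17.3%, 29.3% and 23.4% in LoF libraries 1 to 4, against 50.005% and 47.4% in the WT libraries. The share of Fgfr2 was 0.576% and 2.38% in GoF and 55.7% to 74.3% in LoF, against 37.1% and 45.1% in WT. Fgfr1 was therefore the most abundant of the 3 in both GoF libraries, Fgfr2 in all 4 LoF libraries, and in WT Fgfr1 was ahead of Fgfr2 by 1.35-fold and 1.05-fold. Fgfr3 held 4.38% to 13.9% in GoF, 8.32% to 15.0% in LoF and 7.43% to 12.9% in WT. The sum itself was 104 and 79.4 FPKM in GoF and 49.1 to 99.9 FPKM in LoF, against 67.1 and 61.7 FPKM in WT, with overlap between GoF and LoF. These shares are a description of the libraries, without a test. Fgfr4, the remaining kinase receptor gene of the family, was listed at 0 in all 8 libraries.

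**Figure D2:**
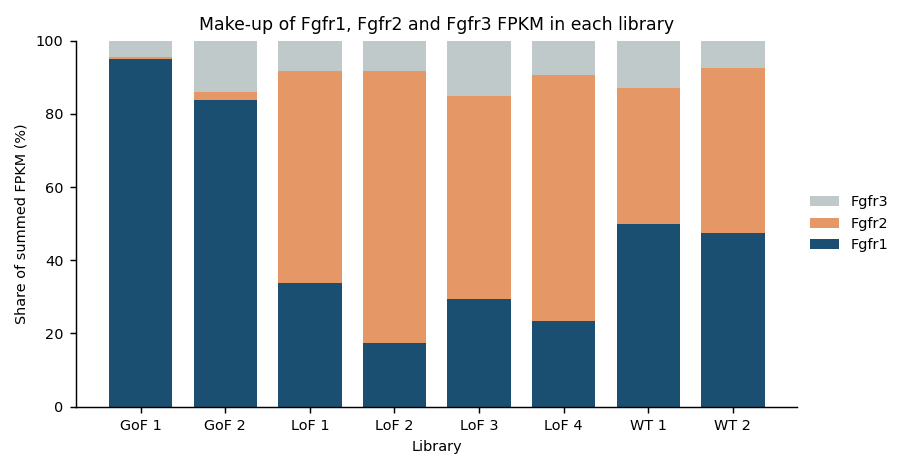
Share of the summed FPKM of Fgfr1, Fgfr2 and Fgfr3 (y axis, percent) in each library (x axis, GoF, LoF and WT libraries). Fgfr1 fills 83.7% or more in GoF and Fgfr2 55.7% or more in LoF, and in WT the shares of Fgfr1 are 50.005% and 47.4%.

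Of the Sprouty genes, Spry1 was low in GoF and Spry2 was not. Spry1 (ENSMUSG00000037211.12, plus strand of chromosome 3, 37639947 to 37644598) was listed at 0 in GoF library 1 and at 0.231 FPKM in GoF library 2. It was at 2.96, 1.82, 2.98 and 2.27 FPKM in LoF libraries 1 to 4, against 2.91 and 2.11 FPKM in the WT libraries. The LoF and WT libraries overlapped, and both GoF libraries lay below all 6 of them. Spry1 was lower in GoF than in LoF (log2 fold change -1.65, SE 0.43, limma adjusted p = 0.0355) and did not pass in GoF against WT (log2 fold change -1.65, SE 0.50 and adjusted p = 0.138) or in LoF against WT (-0.01, SE 0.43, 95% interval -0.97 to 0.96). The call against LoF was near the threshold: it ended in 10 of 16 alternatives, among them the removal of GoF library 1 or 2 (adjusted p = 0.199 and 0.106), of LoF library 1, 2, 3 or 4 (adjusted p = 0.0652, 0.0508, 0.0521 and 0.0569) or of WT library 2 (adjusted p = 0.0508), and sex as a covariate (adjusted p = 0.0920). Spry2 (ENSMUSG00000022114.4, minus strand of chromosome 14, 105891949 to 105896819) was at 11.8 and 9.77 FPKM in GoF and 5.34, 4.38, 9.08 and 7.55 FPKM in LoF, against 4.46 and 3.48 FPKM in WT. The GoF libraries were the highest and LoF overlapped WT, and no comparison passed (log2 fold change 1.25, SE 0.48 and adjusted p = 0.255 for GoF against WT, 0.58, SE 0.41 and adjusted p = 0.606 for LoF against WT, and 0.67, SE 0.41 and adjusted p = 0.360 for GoF against LoF). Spry2 was above Spry1 in every library, 42.2-fold in GoF library 2, 1.80-fold to 3.33-fold in LoF and 1.53-fold and 1.65-fold in WT.

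Across the members, GoF against LoF called 4 of 7 tested genes (Fgf7, Fgfr2 and Spry1 lower, Fgfr1 higher), where 11.6% of all tested genes were called, 5.68% lower and 5.97% higher. GoF against WT called 2 of 7 (Fgf7 and Fgfr2, both lower), where 2.31% were called, 0.900% lower and 1.41% higher, and LoF against WT called 1 of 7 (Fgf7, higher), where 1.23% were called, 0.566% higher and 0.667% lower. The median log2 fold change of the 7 tested members was -0.03 for GoF with LoF, 0.15 for GoF with WT and 0.58 for LoF with WT, and that of all tested genes was -0.17, -0.08 and 0.06. These counts were not tested against those of all genes, and they are no support for a change of the members as a whole. Under median ratio scaling and quantile normalization the median of all genes in GoF against LoF was -0.05 and -0.03, shifts of the scale that are small beside the called changes. Over all genes, 73 were higher and 86 lower in LoF against WT, with 80 and 147 under quantile normalization. In GoF against WT, 182 were higher and 116 lower, with 112 and 127 at a pseudocount of 0.1.

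**Figure D3:**
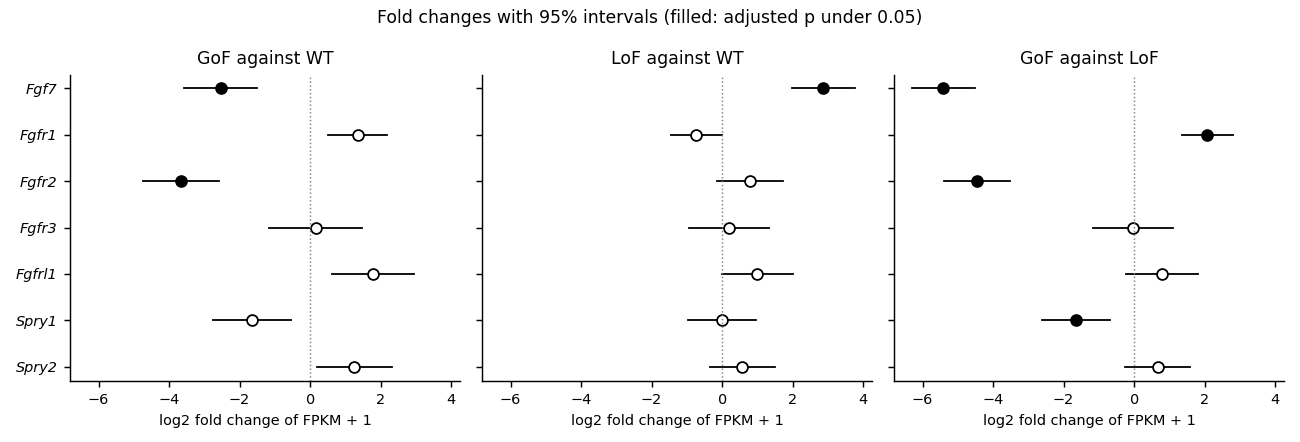
Log2 fold changes on the FPKM + 1 scale (x axis) of the 7 tested members in each comparison, with 95% intervals as lines and filled points for an adjusted p under 0.05. Fgf7 is filled in all 3 comparisons, Fgfr2 in both that involve GoF, and Fgfr1 and Spry1 in GoF against LoF alone.

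The order of levels differed between groups. In GoF the order was Fgfr1, then Spry2, Fgfr3 and Fgfrl1 (means 10.8, 7.79 and 6.86 FPKM, with ranges that overlap between neighbours), then Fgf9 and Fgfr2 (1.76 and 1.24 FPKM, also overlapping), with Spry1 and Fgf2 at or below 0.231 FPKM in each library. In LoF, Fgfr2 (48.9 ± 17.6 FPKM, SD, n = 4) and Fgf7 (43.1 ± 14.3 FPKM) overlapped at the top, followed by Fgfr1 (18.8 ± 4.34 FPKM), and then Fgfr3, Spry2, Fgfrl1 and Spry1 with overlapping neighbours (means of 7.80 to 2.51 FPKM). In WT the order was Fgfr1 (31.4 ± 3.05 FPKM, SD, n = 2), Fgfr2 (26.4 ± 2.08 FPKM), Fgfr3, Fgf7 and Spry2 (6.62, 4.90 and 3.97 FPKM, with overlapping neighbours), Spry1 and Fgfrl1.

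Other genes of the pathway were read from a list of 70, of which 69 were in the table and 46 were tested. In GoF against LoF, 3 were higher, 5 were lower and 38 did not pass, where 11.6% of all tested genes were called. In GoF against WT, 1 was higher, 1 was lower and 44 did not pass, where 2.31% of all were called. In LoF against WT limma called 0 of the 46, where 1.23% of all were called. At an unadjusted p under 0.05 there were 8 of the 46, where 13.4% of all tested genes were under it. The median log2 fold change of the 46 was -0.36, -0.08 and 0.01 in the same order.

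Heparan sulfate core proteins, which hold FGFs on the cell surface, included Sdc1, the gene with the largest log2 change among the called pathway genes. Sdc1, a syndecan gene, was at 2.00 and 5.65 FPKM in GoF and 50.003, 46.3, 65.0 and 80.4 FPKM in LoF, against 50.6 and 42.3 FPKM in WT. The GoF libraries lay far below the rest and LoF overlapped WT. Sdc1 was lower in GoF than in LoF (log2 fold change -3.75, SE 0.39 and adjusted p = 3.02e-04, limma) and than in WT (log2 fold change -3.41, SE 0.45 and adjusted p = 0.00437). The call against WT ended when only those groups were fitted (adjusted p = 0.109), with sex as a covariate (adjusted p = 0.117) and without WT library 1 (adjusted p = 0.0716). With the replicate number as a block, the Sdc1 call against WT ended too (adjusted p = 0.0580). Sdc2 was at 30.9 and 40.9 FPKM in GoF and 138 to 225 FPKM in LoF, against 132 and 83.4 FPKM in WT, and was lower in GoF than in LoF (log2 fold change -2.40, SE 0.30 and adjusted p = 8.92e-04). Sdc3 went the other way, at 33.5 and 22.7 FPKM in GoF and 4.47 to 9.98 FPKM in LoF, against 10.7 and 9.91 FPKM in WT (log2 fold change 1.88, SE 0.41 and adjusted p = 0.0158 in GoF against LoF). The other 9 tested core or ligand-binding genes did not pass in that comparison, Sdc4 and the glypican genes among them.

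Of 16 tested adaptor and MAPK relay genes, GoF had 2 lower than LoF and 14 did not pass, a share near the 11.6% of all tested genes. Gab1, a docking protein of receptor kinases, was at 0.968 and 0.982 FPKM in GoF and 6.47 to 12.1 FPKM in LoF, against 6.49 and 6.75 FPKM in WT (log2 fold change -2.30, SE 0.43, limma adjusted p = 0.00726). Mapk3, the gene of ERK1, was at 5.52 and 3.52 FPKM in GoF and 14.1 to 29.6 FPKM in LoF, against 6.05 and 7.54 FPKM in WT (log2 fold change -1.83, SE 0.41 and adjusted p = 0.0182). Of 8 tested feedback inhibitor genes, Dusp5, a nuclear ERK phosphatase gene, was lower (log2 fold change -2.42, SE 0.56 and adjusted p = 0.0214). It was at 2.63 and 0.688 FPKM in GoF and 6.75 to 20.4 FPKM in LoF, against 3.14 and 3.65 FPKM in WT. Spry4, a further Sprouty gene, was at 0.147 and 1.28 FPKM in GoF and 2.17 to 4.99 FPKM in LoF, against 5.85 and 3.20 FPKM in WT, and did not pass (adjusted p = 0.169 in GoF against LoF). Neither did the ERK phosphatase gene Dusp6 (adjusted p = 0.619).

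Of 6 ERK-responsive transcription factor genes, Etv5, an ETS factor commonly induced by FGF signalling, was higher in GoF than in LoF (log2 fold change 2.70, SE 0.53, limma adjusted p = 0.00962). It was at 9.12 and 13.0 FPKM in GoF and 1.69, 0.847, 0 and 1.26 FPKM in LoF, against 2.80 and 5.12 FPKM in WT, so that no groups overlapped. Cdkn1a, which encodes the cell cycle inhibitor p21 and is induced downstream of Fgfr3 in chondrocytes, was at 642 and 667 FPKM in GoF and 59.2 to 163 FPKM in LoF, against 75.7 and 119.5 FPKM in WT. It was higher in GoF than in LoF (log2 fold change 2.67, SE 0.41 and adjusted p = 0.00287, 5.89-fold by means) and than in WT (log2 fold change 2.77, SE 0.47 and adjusted p = 0.0153, 6.70-fold by means). Against WT, the Cdkn1a call ended when only those groups were fitted (adjusted p = 0.109) and without GoF library 1, GoF library 2, WT library 1 or WT library 2 (adjusted p = 0.170, 0.152, 0.185 and 0.0794). In GoF against LoF, the calls of Cdkn1a, Sdc3, Gab1, Mapk3, Dusp5 and Etv5 each ended without GoF library 1 (adjusted p = 0.0710, 0.184, 0.0720, 0.0830, 0.0850 and 0.0807) and without GoF library 2 (adjusted p = 0.0692, 0.0747, 0.0645, 0.146, 0.213 and 0.110), and those of Sdc1 and Sdc2 held in all 16 alternatives. The calls of Sdc3 and Dusp5 also ended with sex as a covariate (adjusted p = 0.0638 and 0.0744), and that of Etv5 with a pseudocount of 0.1 (adjusted p = 0.0573). The replicate number as a block ended the calls of Sdc3, Gab1, Mapk3, Dusp5 and Etv5 too, and that of Cdkn1a against WT (adjusted p = 0.0859).

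Of 18 other Fgf genes, 2 were tested and neither was called. Fgf13, whose product stays inside the cell and is not a receptor ligand, was at 17.1 and 18.8 FPKM in GoF and 7.70 to 16.7 FPKM in LoF, against 7.29 and 2.84 FPKM in WT (log2 fold change 1.75, SE 0.51 and adjusted p = 0.124 in GoF against WT). Fgf1, a broad ligand, was at 2.92 and 0.948 FPKM in GoF, at most 2.89 FPKM in LoF, and listed at 0 and at 1.83 FPKM in WT. Fgf23, the phosphate-regulating hormone gene of osteocytes, was listed at 0 in all 8 libraries, as was Klb, while its coreceptor gene Kl was at or below 0.310 FPKM in each.

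**Figure D4:**
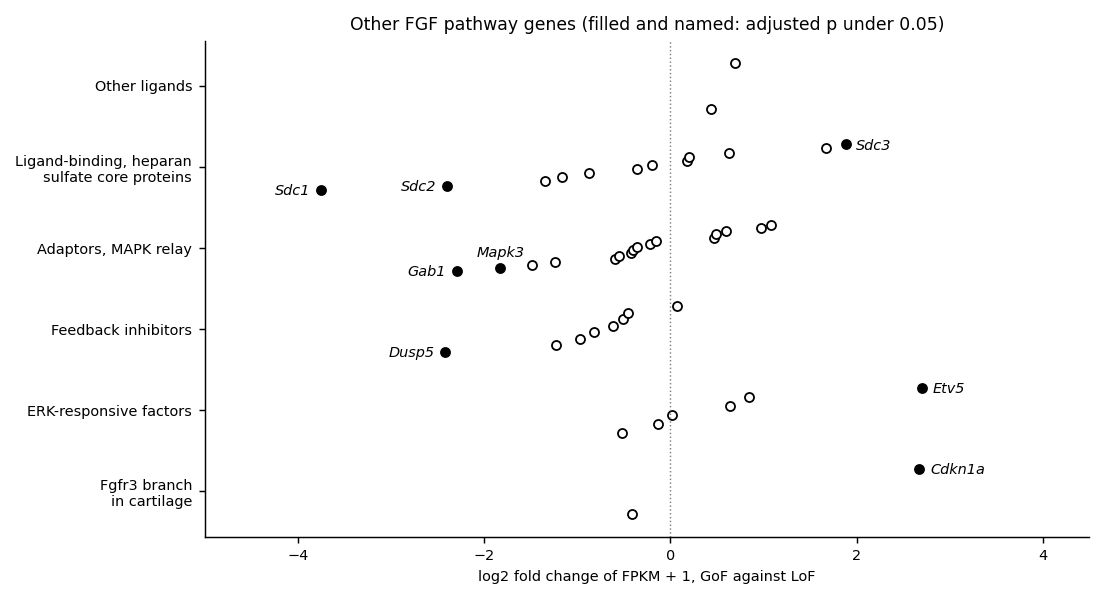
Log2 fold changes of GoF against LoF on the FPKM + 1 scale (x axis) for 46 other FGF pathway genes, grouped by role (y axis, with points spread out within a role). Filled and named points had an adjusted p under 0.05, with Sdc1, Sdc2, Gab1, Mapk3 and Dusp5 to the left of 0 and Sdc3, Etv5 and Cdkn1a to the right.

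The genes whose pattern over the 8 libraries was most like that of a called member were found by Pearson correlation of log2(FPKM + 1) among 10956 tested genes with a name of their own, as a description without a test, since all points share their libraries and 3 group levels. Fgf7 was closest to Tmsb4x (r = 0.993), the gene of an actin-binding peptide, Pdcd4 (r = 0.993) and Marcks (r = 0.985). Tmsb4x averaged 225 FPKM in GoF and 1911 FPKM in LoF, against 533 FPKM in WT. Fgfr2 was closest to Myl9 (r = 0.993), a myosin light chain gene of contractile cells, Mest (r = 0.991) and Rasgrp2 (r = 0.989). Myl9 averaged 1.89 FPKM in GoF and 82.1 FPKM in LoF, against 31.3 FPKM in WT. Fgfr1 was closest to Smox (r = 0.985), Kazald1 (r = 0.984) and Wif1 (r = 0.984), a secreted Wnt inhibitor gene that averaged 363 FPKM in GoF and 33.5 FPKM in LoF, against 76.9 FPKM in WT. Spry1 was closest to S1pr3 (r = 0.984), Rfc4 (r = 0.982) and Rab3il1 (r = 0.981).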

How the data were processed

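RNA of 8 libraries was measured as FPKM per gene, a unit computed by the authors and named in the title of the deposited table. HISAT2, SAMtools 0.1.18, Cufflinks, HTSeq and mm10 are named per the submitters' processing notes, without role or order, and the annotation release is not given in the sources used here. Of 48555 lines, 65 repeated a gene with identical values, which left 48490. FPKM was used as log2(FPKM + 1), which understates changes of low genes, and 12888 genes with at least 1 FPKM in at least 2 libraries were tested. The fit was made in R 4.3.3 with limma 3.58.1 on all 3 groups (mean-variance trend, Benjamini-Hochberg over all tested genes, called at an adjusted p under 0.05), which was tested on simulated data. The members, the lists and the alternatives were chosen with earlier results of these data known.

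Alternatives were a pseudocount of 0.1, no filter, quantile normalization, median ratio scaling, a fit of only the groups compared, no trend, the replicate number as a block, sex as a covariate (Xist against 4 Y-linked genes) and leaving out each library, with the tested genes kept. The text names all members, called pathway genes (up to 6 per list), and 3 genes of similar pattern per called member; the other pathway genes named as not called were chosen after their values were seen. Starts in the table count from 0 and are printed 1-based. They matched GENCODE M21 (GRCm38) at both ends for 8 of 10 members. Libraries of Smart-seq2 carry no strand, so reads of Fgf2, Fgfr1, Fgfr3 and Spry1 cannot be told from those of antisense genes whose exons overlap theirs. Promoters came from RefSeq. Read depth is unknown, so no counting intervals are given.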

Additional observations from a re-analysis of the deposited data

How the results depend on the processing

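Of 496 values of 31 gene results under 16 alternatives each, 418 kept their direction and their side of the threshold, 61 lost a call and 1 gained it. Another 16 changed sign, all of Fgfr3 or Spry1 where neither was called. For Fgfr3 these were GoF against WT with sex as a covariate (-0.24, log2), LoF against WT with the replicate block (-0.23) and sex (-0.0083), and GoF against LoF with median ratio scaling (0.12), quantile normalization (0.13) and the replicate block (0.38). With a library left out its log2 fold change ranged between -0.40 and 0.71, -0.21 and 0.58, and -0.59 and 0.52. Spry1 in LoF against WT was 0.046 with sex as a covariate and -0.17 to 0.16 with a library left out. The cause of these changes was not tested.

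The called members numbered 2 in GoF against WT and 1 in LoF against WT, and 0 in each with only the groups compared, with the replicate block and with sex as a covariate. At an unadjusted p under 0.05, limma gave 2334, 2123 and 1443 of all 12888 tested genes in GoF against WT in these settings. In the main fit, 14.3% of all tested genes were under it in GoF against WT and 13.4% in LoF against WT. At the same threshold, limma gave 6, 6 and 4 members in GoF against WT and 2, 3 and 1 in LoF against WT in these settings. With a library left out they numbered 0 to 2 and 0 to 1, and 2 to 4 in GoF against LoF. Pathway genes called in GoF against WT were 0 with only the groups compared (12 unadjusted), 0 with the block (9 unadjusted), 1 with sex and 0 to 3 with a library left out. In GoF against LoF they were 3 with the block and 2 to 10 with a library left out, lowest without GoF library 1 or 2 (2 each).

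Over all genes, GoF against WT called 298, and 0 with only the groups compared (2334 unadjusted), 15 with the block, 11 with sex and 39 to 332 with a library left out (106, 160, 39 and 76 without GoF 1, GoF 2, WT 1 and WT 2). LoF against WT called 159, and 83 with a pseudocount of 0.1, 53 without a filter, 0 with only the groups compared (1569 unadjusted), 54 without a trend, 1 with the block, 14 with sex and 0 to 135 with a library left out (0 without GoF 1 or GoF 2, with 1578 and 1583 unadjusted, 43 and 104 without LoF 2 and LoF 4, 28 and 4 without WT 1 and WT 2). GoF against LoF called 1501, and 727 with the block, 974 with sex and 429 to 1369 with a library left out (429 and 521 without GoF 1 and GoF 2). Same-numbered libraries did not deviate together (correlations of 0.00442 to 0.0176 in the 3 group pairs), so the numbers are not taken as pairs. With the block, the log2 fold changes of Fgf7 and Fgfr2 in GoF against WT were unchanged (-2.54 and -3.67). Comparisons with LoF then rest on LoF libraries 1 and 2, and their fold changes moved, not all in the same direction. That of Mapk3 in GoF against LoF was -1.50, against -1.83 in the main fit. Leaving out a library or fitting fewer groups also leaves fewer libraries to estimate the spread.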
